A study of Citrus sinensis with 6 samples.

Results

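Cysteine and methionine metabolism in sweet orange leaves was followed here through 97 of the 29875 genes in the deposited table. The genes were those whose pathway annotation in the KEGG database names this pathway, 139 in all, without 42 that also belong to sulfur metabolism, glutathione metabolism, the citrate cycle, carbon fixation or the synthesis of aromatic amino acids. The rule of this choice used no expression value, but it was set with earlier results of these data known. Of the 97 genes, 25 were listed at 0 in every library, 20 were above 0 but too low to be tested, at 1.48 FPKM at most, and 52 were tested. FPKM is a read level corrected for gene length and for the size of the library. A gene was tested if it reached an FPKM of 1 in at least 3 libraries.

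The libraries came from tissue-cultured sweet orange (Citrus sinensis) plants kept for 25 days on MS nutrient solution, 3 with sufficient boron (CK) and 3 with deficient boron (T). The design stated for the series gives a boron supply of 0.25 mg/L in CK against 0.01 mg/L in T. The methods of the paper give these numbers as boric acid, which would be less boron, and the treatment protocol in the labels gives 0.01 mg/L for every library. CK titles name leaf blades whereas T titles name the leaf, and a difference in the part sampled cannot be told apart from boron supply. The replicates are called biological, but it is not stated whether they came from separate plants, so p-values speak only for the spread among the libraries at hand, which may be technical.

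In plants, methionine is built on a carbon skeleton from aspartate, with sulfur from cysteine. Most of it is turned into S-adenosylmethionine, the methyl donor of DNA, lipid and cell wall methylation, which is also the precursor of ethylene and, after decarboxylation, of the polyamines spermidine and spermine. Both of these branches release methylthioadenosine, and the methionine salvage (Yang) cycle recovers methionine from it.

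Each library held between 17689273 and 24026223 recovered reads in genes, and 1 read in a gene of 1000 bases was worth 0.0414 to 0.0563 FPKM. The leaf label was checked with genes of the photosynthetic antenna, which bind chlorophyll, and they were abundant in every library, at summed levels of 15372 to 19642 FPKM in CK and 9884 to 20167 in T. All 15 tested antenna genes had a negative log2 fold change, and none met a criterion for a difference. In T the summed level was 9884, 20167 and 9934 FPKM, so that T replicate 2 lay above every CK library. The part of the antenna genes in the results below was not tested. RNA came from whole leaf tissue, so fewer cells of a type and less RNA per cell cannot be told apart.

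Neither these genes nor the table as a whole held many differences that passed the adjusted test. At an adjusted p under 0.05, limma with Benjamini-Hochberg adjustment called 0 of the 52 tested genes, and the lowest adjusted p among them was 0.462. Over all 16421 tested genes it called 1, or 0.00609%. At an unadjusted p under 0.05 there were 6 of the 52 genes (11.5%), 3 higher and 3 lower in T, beside 4.78% of all tested genes, and limma voom on the recovered reads likewise called 0 at the adjusted threshold. The criterion of the study, a 2-fold or larger difference at a p no higher than 0.05, was applied here to the unadjusted p of limma and was met by 1 gene that was higher in T (1.92%, beside 1.27% of all tested genes) and by 2 that were lower (3.85%, beside 1.08%). With counts this small, these shares rest on single genes. All T values lay above all CK values for 3 of the 52 genes (5.77%, beside 4.46% of all tested genes) and below them for 2 (3.85%, beside 3.71%). The fit gave 34 genes a positive and 18 a negative log2 fold change, with a median of 0.10, beside 8733 positive and 7688 negative ones and a median of 0.02 over all tested genes, and 39 of the 52 differed by less than 1.5-fold. The median was -0.03 without T replicate 2. Levels of groups are given as mean ± SD over the 3 libraries (n = 3). Fold changes are on the log2(FPKM + 1) scale, on which differences of weakly expressed genes come out too small.

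**Figure D1:**
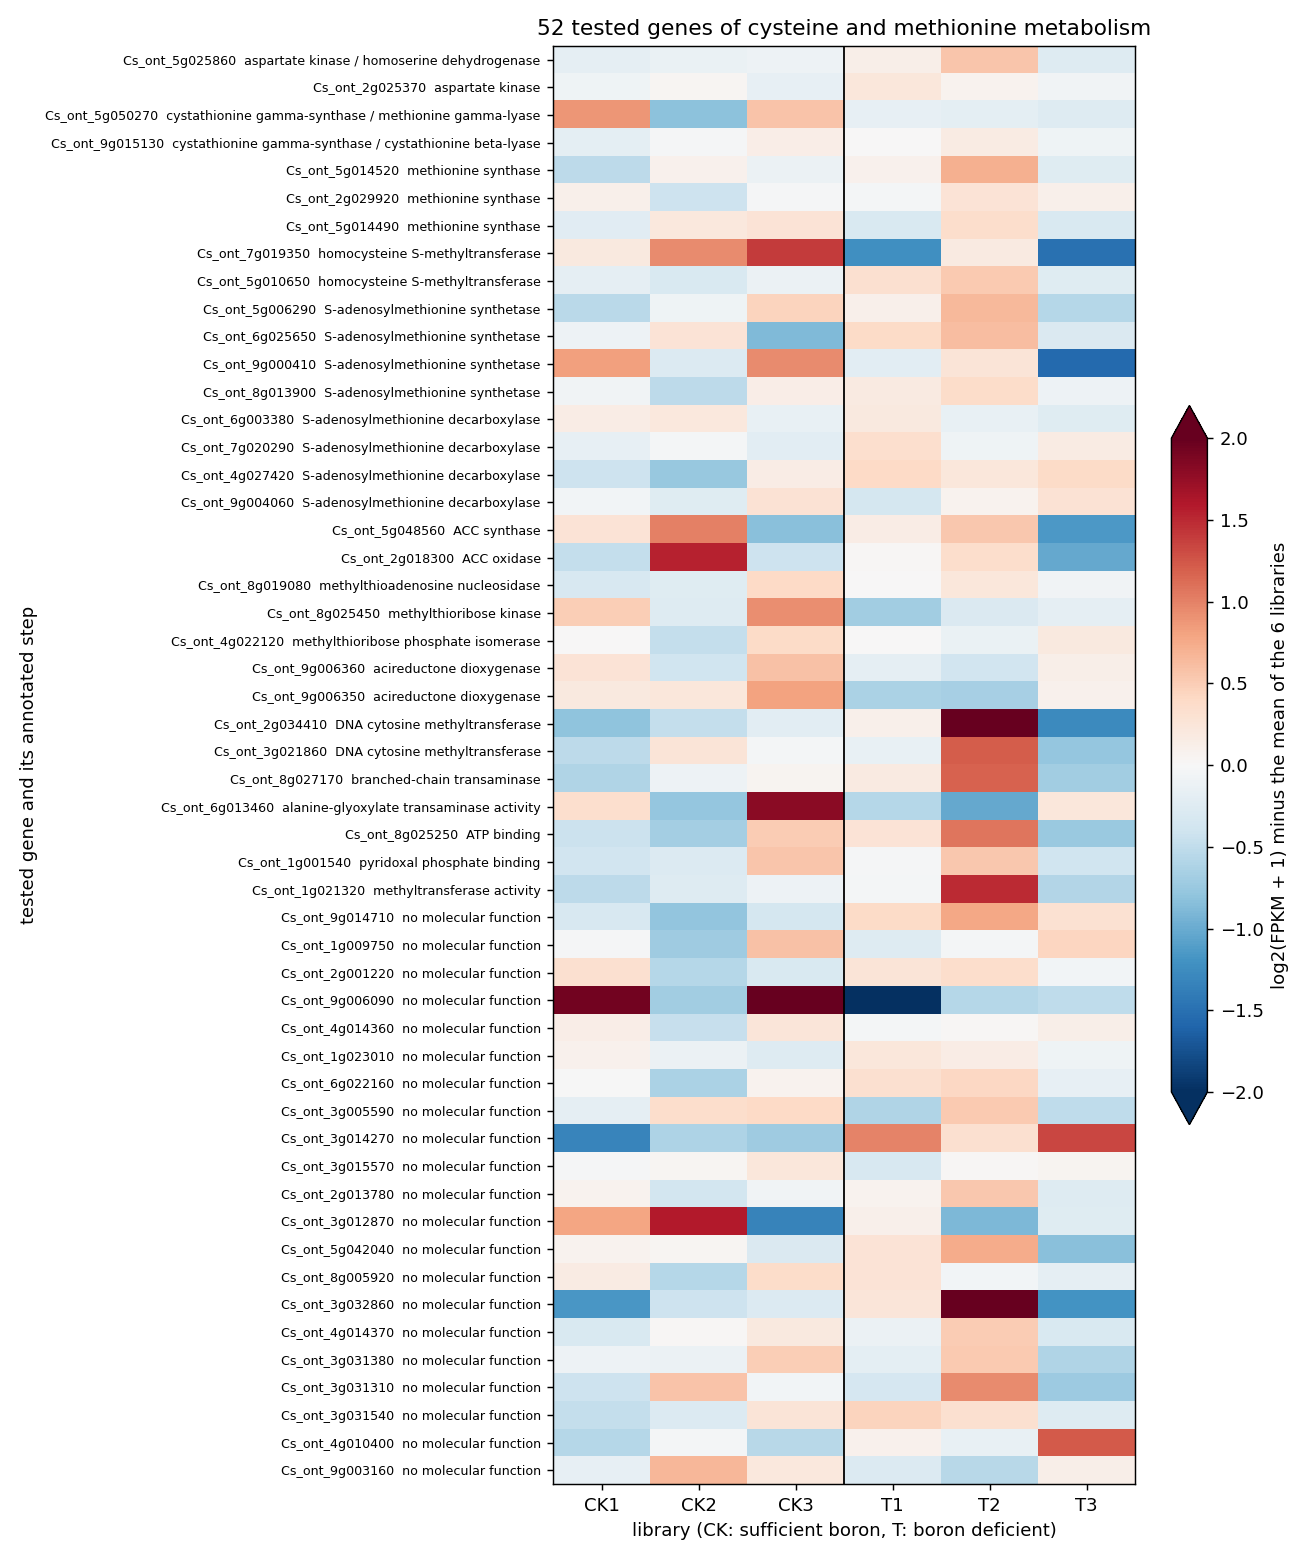
Levels of the 52 tested genes (rows, by annotated step) in the 6 libraries (columns), as log2(FPKM + 1) minus the mean of the gene, with red above and blue below that mean and colours capped at 2 in either direction. Cs_ont_3g014270 is red in every T library and blue in every CK library, and the column T2 (T replicate 2) holds the highest value of 24 genes.

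Homocysteine becomes methionine when it receives a methyl group, and a gene annotated with such a transfer met the criterion as lower in T. The gene, Cs_ont_7g019350, is annotated as a homocysteine S-methyltransferase with S-adenosylmethionine as the methyl donor. It stood at 10.7, 18.7 and 25.7 FPKM in CK and at 3.36, 10.5 and 2.62 in T. All T values were below the CK values, but T replicate 2 came within a small distance of CK replicate 1. The mean was 18.4 ± 7.52 FPKM in CK against 5.49 ± 4.33 in T, 3.35-fold higher in CK, with an exact permutation p of 0.1 (two-sided), the smallest that 3 against 3 allows. On the log2 scale the difference was -1.69 (standard error 0.51, adjusted p = 0.834 from limma), on 55 to 612 recovered reads per library. It met the criterion of the study in each of the 15 alternative settings tried. The second gene with this annotation, Cs_ont_5g010650, stood at 4.05, 3.60 and 4.24 FPKM in CK and 6.07, 7.17 and 3.82 in T, with a log2 fold change of 0.40 (standard error 0.25). These groups overlapped, and whether the pair of genes differed in their response was not tested.

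Methionine synthase, which carries out the last step of methionine synthesis with a folate as the methyl donor, was represented by 3 genes. The most abundant, Cs_ont_5g014520, stood at 137, 210 and 181 FPKM in CK and 209, 323 and 166 in T. T replicate 2 was the highest library and the groups overlapped (log2 fold change 0.37, standard error 0.31). Without T replicate 2 the value was 0.11, and without T replicate 3 it was 0.58. Summed over the 3 genes the level was 218 ± 34.2 FPKM in CK against 279 ± 87.4 in T. Upstream of this step, the aspartate kinase gene Cs_ont_2g025370, of the first reaction from aspartate, stood at 16.4 ± 1.25 FPKM in CK against 18.4 ± 1.93 in T. Cs_ont_5g025860, which carries both aspartate kinase and homoserine dehydrogenase annotations, stood at 35.1, 36.3 and 37.3 FPKM in CK and 43.4, 59.0 and 33.2 in T. Its CK libraries were close to each other, whereas T spread on both sides of them.

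Cystathionine enzymes join the sulfur of cysteine to the aspartate-derived skeleton and split the product again. Cs_ont_9g015130, annotated with both activities, was among the steadiest genes, at 27.7 ± 3.24 FPKM in CK against 28.6 ± 2.61 in T. Cs_ont_5g050270, annotated as cystathionine gamma-synthase and methionine gamma-lyase, stood at 109, 32.7 and 87.2 FPKM in CK and 52.5, 50.9 and 49.0 in T. The spread lay in CK, whose replicate 2 was the lowest of all libraries, and the log2 fold change was -0.41 (standard error 0.43). Single CK libraries set this value, which was -0.93 without CK replicate 2 and -0.074 without CK replicate 1.

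S-adenosylmethionine synthetase, which makes the methyl donor from methionine and ATP, was the annotation of 4 genes. They differed in direction by the fit, 3 with a positive and 1 with a negative fold change. The negative one, Cs_ont_9g000410, stood at 185, 86.3 and 200 FPKM in CK and 90.0, 125 and 34.9 in T. CK replicate 2 lay within the T range, and the log2 fold change of -0.996 (standard error 0.54) did not pass the test (adjusted p = 0.999 from limma). Leaving out CK replicate 2 (-1.38) or T replicate 2 (-1.38) made it meet the criterion, whereas leaving out T replicate 3 reduced it to -0.47. The most abundant, Cs_ont_5g006290, stood at 165, 227 and 328 FPKM in CK and 258, 378 and 162 in T, and Cs_ont_6g025650 at 168, 217 and 97.6 in CK and 234, 278 and 147 in T. Both were highest in T replicate 2. The least abundant, Cs_ont_8g013900, stood at 15.7 ± 3.72 FPKM in CK against 19.5 ± 3.29 in T. The sum of the 4 genes was 574 ± 62.4 FPKM in CK against 588 ± 222 in T.

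Used as a methyl donor, S-adenosylmethionine leaves S-adenosylhomocysteine, which adenosylhomocysteinase removes. The 3 genes with that annotation were listed at 0 in every library. As cells in general use this enzyme, the entry is given as listed and not as an absence of the transcript.

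Ethylene is made from S-adenosylmethionine by 1-aminocyclopropane-1-carboxylate (ACC) synthase and ACC oxidase. The tested ACC synthase gene, Cs_ont_5g048560, stood at 16.5, 28.0 and 7.09 FPKM in CK and 15.04, 20.002 and 5.51 in T. The tested ACC oxidase gene, Cs_ont_2g018300, stood at 224, 912 and 234 FPKM in CK and 317, 402 and 154 in T. CK replicate 2 was far above every other library for the oxidase and was also the highest for the synthase. The log2 fold change of the oxidase was -0.43 (standard error 0.64), and it was 0.24 without CK replicate 2. That of the synthase was -0.30 (standard error 0.59), and it became 0.13 when CK replicate 2 was left out and 0.20 when T replicate 3 was. The other ACC synthases, Cs_ont_4g009970 and Cs_ont_5g003690, and the other ACC oxidase, Cs_ont_3g008770, were too low to be tested, and each had its highest level in T replicate 1, at 0.632, 1.33 and 1.21 FPKM. Among genes of the wider pathway, 0 of 9 tested genes of ethylene biosynthesis met the criterion in either direction, and 7 genes of that list are among the 97. Of 132 tested genes of the response to ethylene, 3 were higher and 3 lower by the criterion (2.27% each), with a median log2 fold change of -0.01. Over all tested genes the shares were 1.27% higher and 1.08% lower, so that 0 among 9 genes says little.

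S-adenosylmethionine decarboxylase, which commits the molecule to polyamines, was the annotation of 4 genes. Cs_ont_4g027420 stood at 7.33, 5.53 and 11.3 FPKM in CK and 13.7, 11.99 and 13.5 in T. All T values were above the CK values, and the T libraries lay close together. The mean was 8.04 ± 2.93 FPKM in CK against 13.0 ± 0.913 in T (exact permutation test, two-sided, p = 0.1), and the log2 fold change was 0.68 (standard error 0.25, adjusted p = 0.969 from limma). The gene is a minor one of its kind. The abundant decarboxylase genes were Cs_ont_6g003380, at 261 ± 34.0 FPKM in CK against 238 ± 38.6 in T, and Cs_ont_7g020290, at 125 ± 7.54 in CK and 153 ± 22.5 in T. The fourth, Cs_ont_9g004060, was near the limit of testing in both groups, at 1.05 ± 0.400 FPKM in CK against 1.06 ± 0.445 in T. The sum over the 4 genes was 394 ± 36.8 FPKM in CK against 405 ± 57.2 in T. Of 8 tested genes of polyamine biosynthesis, 4 of the 9 listed being among the 97, 0 met the criterion. With 1.27% higher and 1.08% lower over all tested genes, 0 in a list this short says little.

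The methionine salvage cycle was represented by 5 tested genes, 2 with a positive and 3 with a negative fold change. Cs_ont_9g006350, annotated as an acireductone dioxygenase, a late enzyme of the cycle, stood at 67.3, 68.4 and 103 FPKM in CK and 37.4, 36.5 and 61.9 in T. All T values were below the CK values, with a mean of 79.5 ± 20.3 FPKM in CK against 45.3 ± 14.4 in T (exact permutation test, two-sided, p = 0.1). The log2 fold change was -0.81 (standard error 0.28, adjusted p = 0.923 from limma), and the criterion was met without T replicate 3 (-1.06). The value shrank to -0.62 without CK replicate 3, to -0.70 without T replicate 1 and to -0.68 without T replicate 2. It was -0.92 without CK replicate 1 and -0.91 without CK replicate 2. The adjacent gene in the table, Cs_ont_9g006360, has the same annotation and stood at 91.4, 56.7 and 114 FPKM in CK and 66.4, 57.3 and 81.8 in T, with overlapping groups. Their recovered lengths were 956 and 3424 bases, and how alike their sequences are was not tested. Reads that match both could have been dropped or misplaced in the counting, and their single values are uncertain to that extent.

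Methylthioribose kinase, which phosphorylates an early intermediate of the cycle, also stood lower in T on average. Cs_ont_8g025450 was at 95.8, 56.0 and 130 FPKM in CK and 41.5, 54.9 and 59.4 in T. CK replicate 2 fell inside the T range, and the log2 fold change was -0.78 (standard error 0.33, adjusted p = 0.999 from limma). Without CK replicate 2 it was -1.10 and met the criterion, and without CK replicate 3 it was -0.51. The methylthioadenosine nucleosidase gene Cs_ont_8g019080, of the entry to the cycle, stood at 15.5 ± 4.78 FPKM in CK against 16.4 ± 1.96 in T, and the isomerase gene Cs_ont_4g022120 at 19.6 ± 5.93 and 19.8 ± 2.46. Summed over the cycle, the level was 286, 208 and 393 FPKM in CK and 181, 185 and 240 in T, with CK replicate 2 below T replicate 3.

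**Figure D2:**
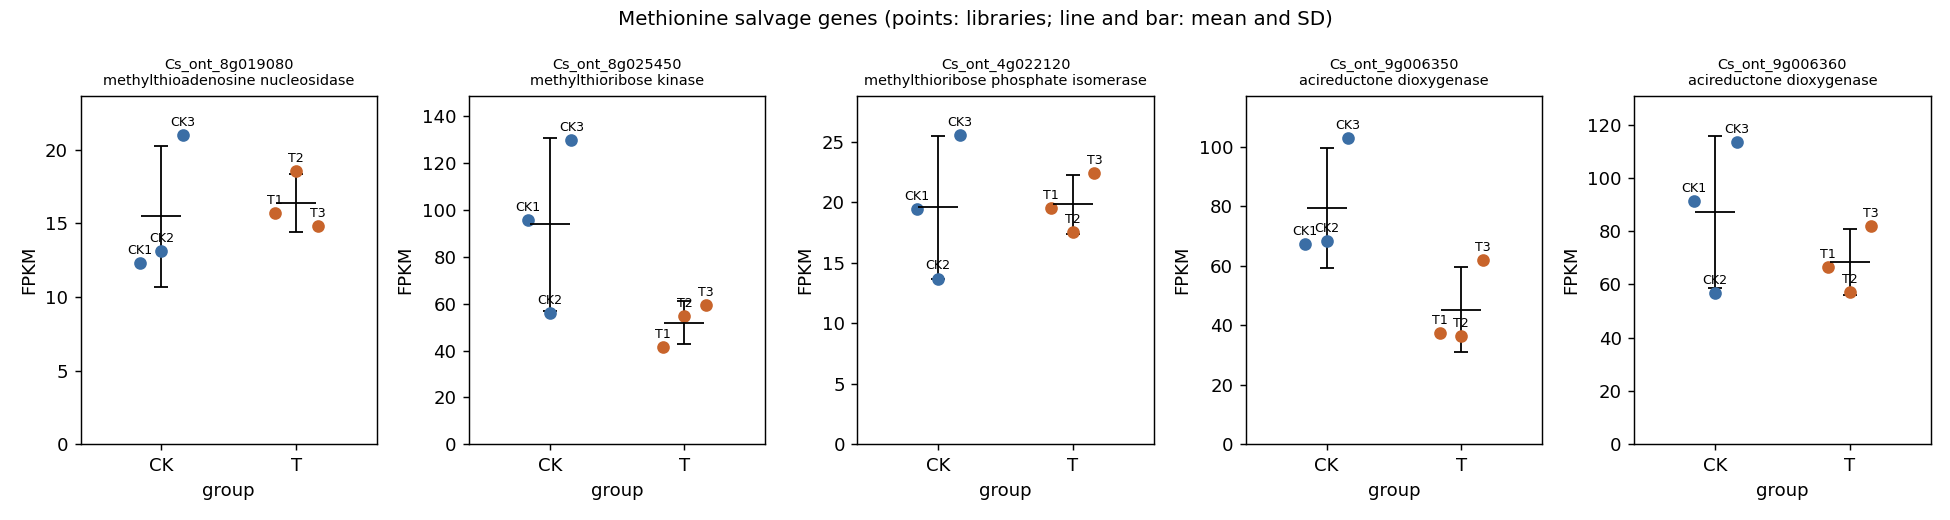
Levels in FPKM of the 5 tested methionine salvage genes in CK and T, with points for libraries and lines and bars for the mean and SD of 3 libraries. The groups are separate for Cs_ont_9g006350 and overlap for the other genes.

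DNA cytosine methyltransferases use S-adenosylmethionine to methylate DNA. Cs_ont_2g034410 stood at 1.43, 2.06 and 2.69 FPKM in CK and 3.55, 25.9 and 0.765 in T, and Cs_ont_3g021860 at 1.28, 2.90 and 2.18 in CK and 1.96, 6.61 and 0.914 in T. T replicate 2 alone was high and T replicate 3 was the lowest library for both. The log2 fold change of Cs_ont_2g034410 was 0.99 (standard error 0.93), and it was -0.09 without T replicate 2. It was 1.88 without T replicate 3 and then met the criterion. A further gene, Cs_ont_3g032860, which has no molecular function in the table but a process annotation for maintenance of DNA methylation, stood at 0.310, 1.18 and 1.42 FPKM in CK and 2.46, 19.4 and 0.280 in T, and likewise met the criterion only without T replicate 3 (2.14) among the settings tried. It was singled out after its values were seen, as was Cs_ont_3g021860. The methyltransferase gene Cs_ont_1g021320 was likewise highest in T replicate 2, at 9.09 FPKM against 1.40 to 2.49 elsewhere.

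Genes of DNA replication, a sign of dividing cells, were also highest there. Their summed level was 501, 498 and 719 FPKM in CK and 598, 877 and 541 in T, and 32 of the 43 genes above 0 were highest in T replicate 2. By the criterion 0 of 40 tested replication genes differed, beside 1.27% higher and 1.08% lower of all tested genes. They had 34 positive and 6 negative fold changes. The part of this in the methyltransferase values was not tested. T replicate 2 was also the highest library for 24 of the 52 tested genes (46.2%, beside 25.3% of all tested genes), and T replicate 3 was the lowest for 18 (34.6%, beside 15.5%). The summed level of the 97 genes was 3091, 3297 and 3392 FPKM in CK and 3286, 3977 and 2775 in T, so that the T libraries included both the highest and the lowest sum.

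**Figure D3:**
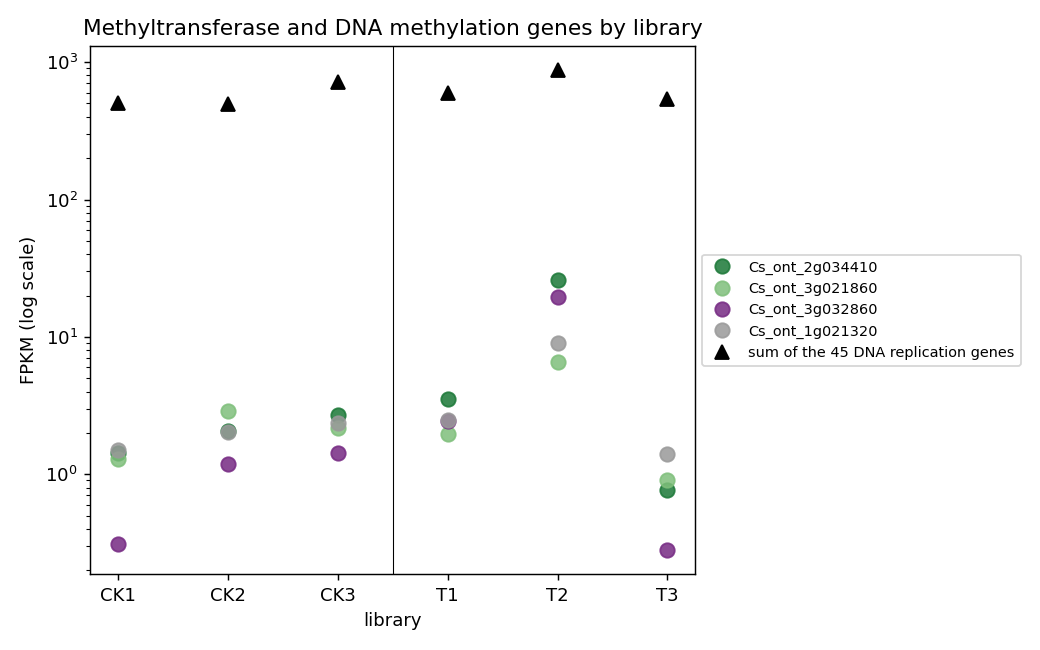
Levels in FPKM, on a log scale, of DNA cytosine methyltransferase genes Cs_ont_2g034410 and Cs_ont_3g021860, of Cs_ont_3g032860 and of methyltransferase gene Cs_ont_1g021320 by library, with the summed level of 45 DNA replication genes as triangles. Each series has its highest point in T2.

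Transaminases pass amino groups between amino acids and keto acids, and the genes annotated with this function were low or variable. Cs_ont_6g013460, annotated as an alanine-glyoxylate transaminase, stood at 22.7, 9.98 and 64.7 FPKM in CK and 11.6, 8.23 and 21.0 in T, so that CK replicate 3 set much of the difference (log2 fold change -0.91, standard error 0.66). It met the criterion without CK replicate 2 (-1.53) and was -0.24 without CK replicate 3. Of 4 branched-chain transaminase genes, only Cs_ont_8g027170 was tested. It stood at 0.277, 0.818 and 1.01 FPKM in CK and 1.19, 3.41 and 0.200 in T, on 4 to 73 recovered reads, and T replicate 2 was again the highest.

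Genes with no molecular function in the table made up 53 of the 97 and 21 of the 52 tested, and the gene with the lowest p was among them. Such genes were placed in no step, so the counts and sums given for a step cover annotated genes only. Cs_ont_3g014270 stood at 7.25, 12.5 and 11.7 FPKM in CK and 40.2, 24.9 and 51.2 in T. The lowest T value, that of T replicate 2, was well above the highest CK value. The mean was 10.5 ± 2.83 FPKM in CK against 38.8 ± 13.2 in T, 3.70-fold higher in T (exact permutation test, two-sided, p = 0.1). On the log2 scale the difference was 1.77 (standard error 0.32, adjusted p = 0.462 from limma), on 349 to 2730 recovered reads, and the criterion was met in each of the 15 alternative settings. Its process annotations name phloem transport and pollen tube growth. It shares a second pathway, a mixed group of secondary metabolites, with the 4 S-adenosylmethionine synthetase genes. Cs_ont_8g005920, tested and also without a function, has this second pathway too, and stood at 7.58 ± 2.64 FPKM in CK against 7.53 ± 1.44 in T.

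The most abundant of all 97 genes, Cs_ont_9g014710, is known in the table by its pathway alone. It stood at 406, 293 and 397 FPKM in CK and 665, 867 and 625 in T. All T values were above the CK values, and the mean was 1.97-fold higher in T, at 365 ± 62.9 FPKM in CK against 719 ± 130 in T (exact permutation test, two-sided, p = 0.1). The log2 fold change was 0.98 (standard error 0.29, adjusted p = 0.825 from limma), just under the fold limit of the criterion. Leaving out CK replicate 1 (1.06), CK replicate 3 (1.04), T replicate 1 (1.02) and T replicate 3 (1.07), each in turn, brought it past that limit. Leaving out CK replicate 2 (0.82) or T replicate 2 (0.83) moved it further below. The criterion was met in 4 of the 15 alternative settings, all of them runs with a library left out.

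Cs_ont_9g006090, also without a function, had the most negative fold change of the 52 genes, and its CK libraries were far apart. It stood at 225, 35.6 and 241 FPKM in CK and 12.2, 38.8 and 40.5 in T. CK replicate 2 lay among the T values, and the exact permutation test gave p = 0.3 (two-sided). Its fitted log2 fold change was -2.17 (standard error 0.83, adjusted p = 0.982 from limma). It dropped out of the criterion when CK replicate 1 (-1.75), CK replicate 3 (-1.70) or T replicate 1 (-1.63) was left out.

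**Figure D4:**
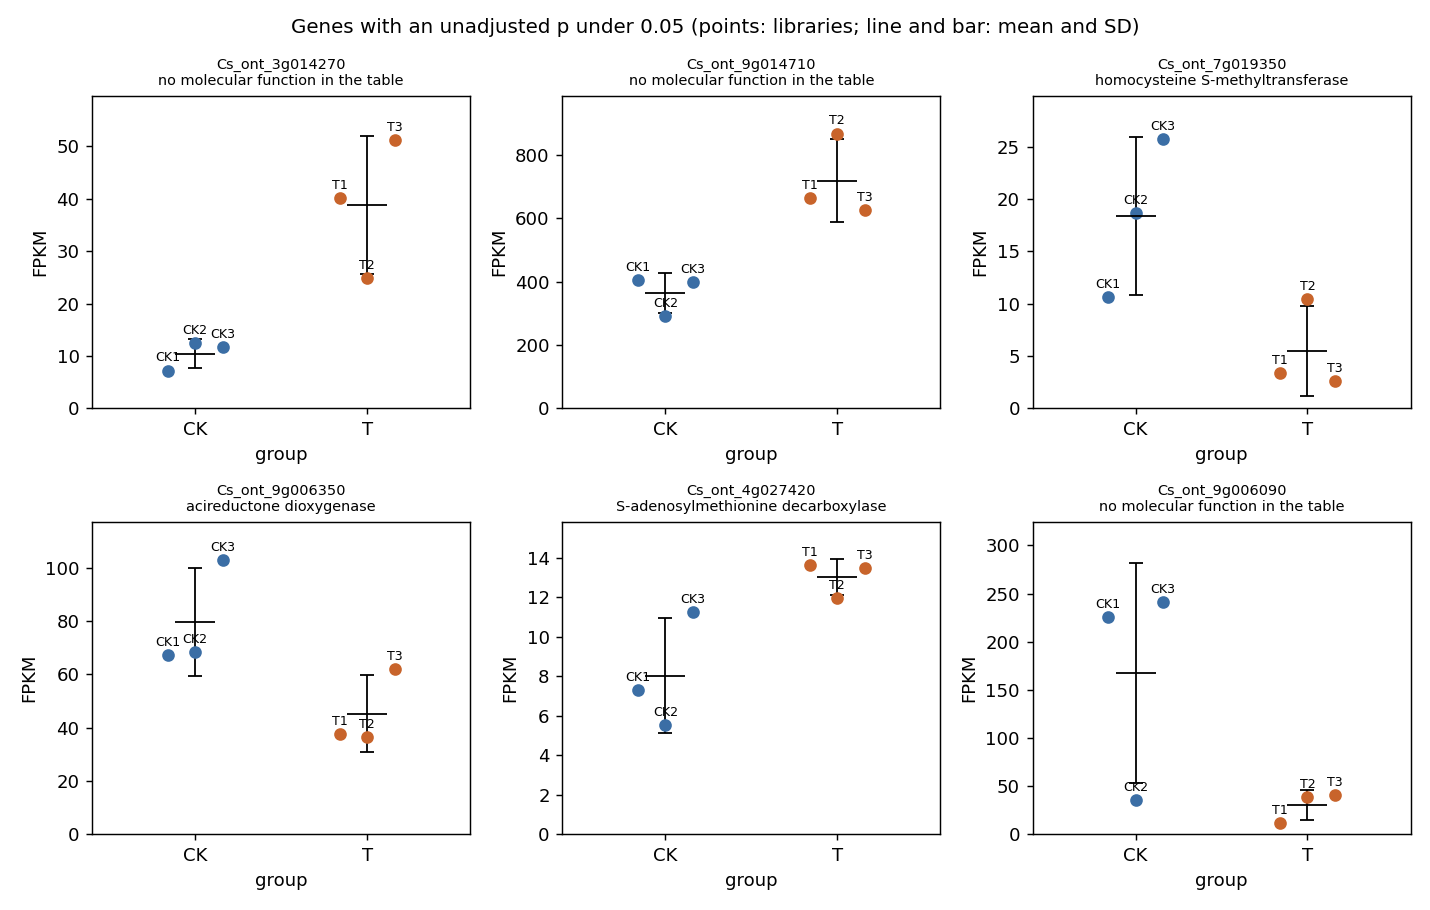
Levels in FPKM of the 6 genes with an unadjusted p under 0.05 in CK and T, with points for libraries and lines and bars for the mean and SD of 3 libraries. The groups are separate for 5 genes and overlap for Cs_ont_9g006090, where CK2 lies among the T libraries.

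**Figure D5:**
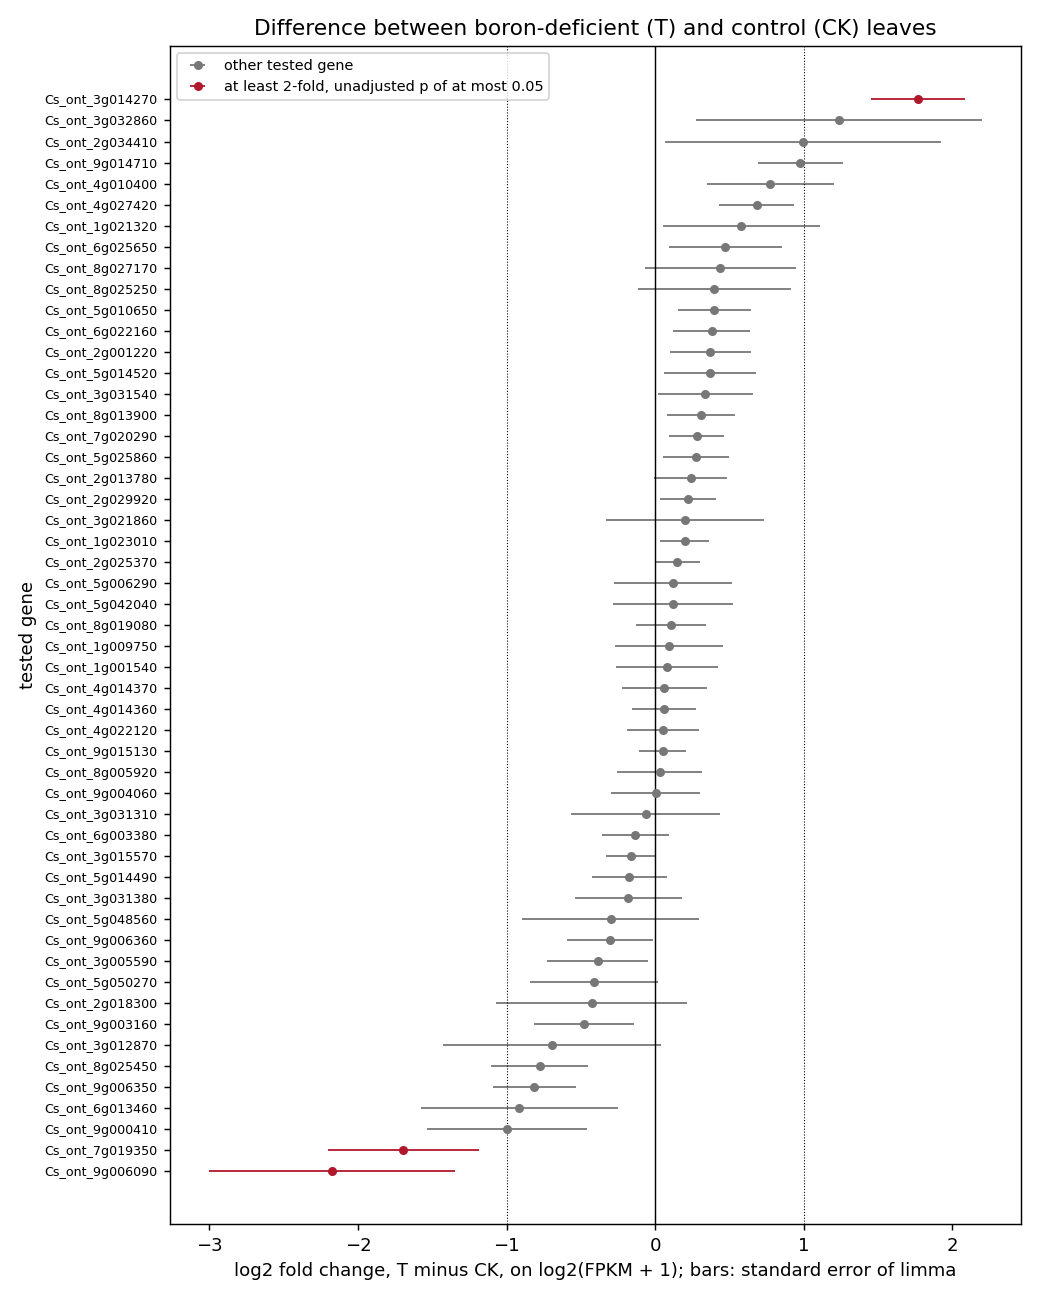
Log2 fold change, T minus CK, of each of the 52 tested genes on the log2(FPKM + 1) scale, with bars for the standard error and dotted lines at a 2-fold change. The 3 genes in red met the criterion of the study, Cs_ont_3g014270 at 1.77, Cs_ont_7g019350 at -1.69 and Cs_ont_9g006090 at -2.17.

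Among the remaining genes named by the rule, Cs_ont_4g010400, without a function, stood at 0.396, 1.004 and 0.405 FPKM in CK and 1.19, 0.860 and 3.83 in T, on 14 to 150 recovered reads. T replicate 3 was its highest library and the groups overlapped. Cs_ont_8g025250, whose rarest function is ATP binding, stood at 11.8 ± 5.93 FPKM in CK against 17.0 ± 10.4 in T, and Cs_ont_1g001540, annotated with pyridoxal phosphate binding, at 10.03 ± 4.19 and 10.5 ± 3.82.

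Several low genes lay near each other in the table. A run of 13 genes from Cs_ont_3g031310 to Cs_ont_3g031620, singled out after its values were seen, held 7 genes listed at 0 and 3 tested ones, and its highest level was 3.93 FPKM. A run of 4 genes from Cs_ont_4g026260 to Cs_ont_4g026310, with the same second pathway as Cs_ont_3g014270, reached 1.48 FPKM at most and held no tested gene.

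Genes of pathways next to this one were counted in the same way, beside 1.27% higher and 1.08% lower of all tested genes. Of the 42 genes left out by the choice, 35 were tested, with 3 higher (8.57%) and 1 lower (2.86%) by the criterion and a median log2 fold change of 0.07. Sulfur metabolism had 1 higher and 1 lower of 30 tested genes (3.33% each), and glycine, serine and threonine metabolism, which shares 13 genes with the 97, had 1 and 1 of 53 (1.89% each). Glutathione metabolism, which uses cysteine, had 8 higher (9.09%) and 1 lower (1.14%) of 88 tested genes, with a median of 0.14. Of 126 tested methyltransferase genes, 2 were higher (1.59%) and 1 lower (0.794%). Lists for other states of the leaf were counted too. Xylem development had 1 higher (4%) and 0 lower of 25 tested genes, with a median of -0.15. Leaf senescence had 3 higher (3.37%) and 0 lower of 89, with a median of 0.06. Photosynthesis had 0 of 39 in either direction, with 7 positive and 32 negative fold changes and a median of -0.29. No difference between these lists was tested.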

How the data were processed

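The authors deposited FPKM values. By the paper's methods they used fastp for trimming, HISAT2 for alignment and HTSeq for counting, and then normalized the counts. The paper names a version of the sweet orange genome without saying that the reads were aligned to it, and the versions of these tools are not stated. The deposited table also holds group averages and the authors' own fold changes, p-values and calls, which were not used. Functions are its GO and KEGG annotations. Reads were recovered from the steps of the FPKM values. Gene lengths came out whole within 0.05 base for 98.17% of 22740 genes above 0, and for all 72 such pathway genes.

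T and CK were compared with limma 3.58.1 (R 4.3.3; lmFit and eBayes with trend) on log2(FPKM + 1) as a two-sided test. The fit left 4 residual degrees of freedom, and p-values were adjusted by Benjamini-Hochberg for 16421 genes. Means of single genes were compared by an exact permutation test over 20 arrangements. The fit was tested on simulated data. Alternatives were other scalings, pseudocounts and filters, voom on recovered reads, array weights, a replicate block and leaving out each library. Precision is limited by 3 libraries per group. Summaries and plots used Python 3.11.15, numpy 2.4.6, pandas 2.3.3 and matplotlib 3.10.9.

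Members and lists were chosen with earlier results of these data known. Genes were named by a rule that took those meeting the criterion, the 10 with the smallest p, the most abundant of each annotated step, and all tested S-adenosylmethionine synthetase and decarboxylase, ACC synthase and ACC oxidase genes.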

Additional observations from a re-analysis of the deposited data

How the results depend on the processing

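The number of genes called at an adjusted p under 0.05 was 0 in each of the 15 alternative settings. The count of genes at least 2-fold higher, 1 as reported, ranged from 1 to 4 when a library was left out (4 when T replicate 3 was dropped and 2 when CK replicate 1, CK replicate 3 or T replicate 1 was). The count of lower genes, 2 as reported, ranged from 1 to 5 (5 when CK replicate 2 was dropped and 1 when CK replicate 1 or T replicate 1 was), and with a replicate block it was 1, since Cs_ont_9g006090 no longer met the criterion. Whether the replicate numbers pair the libraries was not settled. Deviations from the group means correlated at 0.282, 0.212 and -0.0373 for numbers 1 to 3. Between CK and T libraries of unlike number they correlated at -0.404 to 0.227. Deviations from a mean of 3 libraries depend on each other, so these values cannot decide it. The median log2 fold change ranged from -0.03 to 0.23 when a library was left out. Of the values of named genes under the alternatives, 433 kept their direction and side of the criterion, 4 no longer met it, 10 newly met it and 27 changed sign.

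Cs_ont_9g004060, with nearly equal group means, changed sign to -0.049 with quantile normalization, to -0.0087 with a pseudocount of 0.1, to -0.013 with one of 0.01, to -0.0091 with voom and to -0.20 with array weights, and Cs_ont_6g003380 to 0.015 with array weights. Leaving out a library changed the sign of genes with small or single-library differences. Their log2 fold changes ranged from -0.14 to 0.18 for Cs_ont_9g004060, from -0.17 to 0.37 for Cs_ont_1g001540, from -0.17 to 0.44 for Cs_ont_5g006290, from -0.028 to 0.33 for Cs_ont_8g019080, from -0.033 to 0.13 for Cs_ont_9g015130 and from -0.17 to 0.26 for Cs_ont_4g022120. They ranged from -0.77 to 0.24 for Cs_ont_2g018300, from -0.79 to 0.20 for Cs_ont_5g048560, from -0.020 to 1.01 for Cs_ont_1g021320, from -0.090 to 1.88 for Cs_ont_2g034410, from -0.035 to 0.87 for Cs_ont_8g025250 and from -0.043 to 0.90 for Cs_ont_8g027170. The cause was not tested. Depth limits the low genes, where few reads set a value, and 3 libraries per group limit all of them.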
